A study of Mus musculus with 8 samples.

Results

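Cadherins and the protocadherins that lie outside the clustered arrays were followed in RNA of mice with a gene-trap allele of Scn2a, the gene of the sodium channel NaV1.2. Members were the protein-coding genes of the count table whose GENCODE M21 symbol is Cdh or Pcdh with a number (Cdh5 left out), Pcdh11x, Fat1 to Fat4, Celsr1 to Celsr3, Dchs1 or Dchs2, and which held at least 10 counts in 4 libraries. Of 43 genes with such symbols 39 met the count minimum, out of 54446 genes in the table. The other 4 were Cdh15, Cdh16, Cdh17 and Pcdh12. Of the 39, 38 passed the filter of the test, and Cdh3 was too low for it.

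The 8 libraries came from 4 wild-type samples (WT replicates 1 to 4) and 4 samples homozygous for the trapped allele, Scn2agt/gt (HOM replicates 1 to 4). Both genotypes were littermates from heterozygous parents, of the strain given as C75BL6, and no treatment is given. The trapped allele is inherited and not limited to a cell type, and the labels give no age, sex or brain region beyond the word adult in the title. Whether each sample is its own mouse is not said, so the p-values reflect only how these samples spread. The labels call the source neuron, yet glial markers were abundant: 6 oligodendrocyte genes summed to between 3651 and 5483 CPM in WT (CPM, counts scaled to library size with the TMM method of edgeR).

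Cadherins are calcium-dependent adhesion molecules that join cells through tandem extracellular domains. Classical cadherins (type I and type II) hold to the actin skeleton through catenins, and in the brain they mark regions and layers and bind across synapses. The delta-protocadherins carry distinct cytoplasmic tails, some of which recruit the WAVE complex that drives actin branching. The giant Fat and Dachsous proteins bind each other across cells, and the Celsr proteins, relatives of the fly gene flamingo, combine cadherin domains with an adhesion G-protein-coupled receptor and act in planar cell polarity and axon growth.

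Total counts lay between 27993412 and 37538988. Scn2a fell from 435 ± 51.6 to 128 ± 15.1 CPM (SD over n = 4 libraries; log2 fold change -1.77, edgeR quasi-likelihood adjusted p = 1.16e-05), in the direction of the labels. HOM replicate 4 held 2 counts of 4 Y-linked genes and every other library between 4452 and 5984. Summed choroid plexus markers lay between 145 and 1700 CPM in WT, the highest being WT replicate 4, and between 18.7 and 231 CPM in HOM. Of these 10 genes 3 were lower in HOM. Summed neuronal markers (5935 to 6848 CPM in WT, 5303 to 5580 in HOM; 2 of 6 lower) and astrocyte markers (4117 to 4432 CPM in WT, 3200 to 4043 in HOM; 1 of 6 lower) did not overlap between genotypes. The astrocyte sum was dominated by Slc1a2, at a WT mean of 3319 CPM, whereas Slc1a3, Aldh1l1 and Gja1 overlapped between genotypes. Among the neuronal markers Rbfox3 alone had a log2 fold change above 0 (0.10). Summed pericyte and smooth muscle markers did not overlap either, at 124 to 135 CPM in WT and 95.4 to 117 in HOM, with 1 of 6 lower. Endothelial markers summed to between 193 and 254 CPM in WT and between 155 and 194 in HOM, with 3 of 8 lower. Microglial markers summed to between 176 and 204 CPM in WT and between 200 and 219 in HOM. Of these 5 genes 1 was higher in HOM, C1qa (log2 fold change 0.44, edgeR adjusted p = 0.04997). Cortical layer markers summed to between 355 and 421 CPM in WT and between 390 and 417 in HOM, with 1 of 6 higher. Kcnj13 (choroid plexus), Gfap (astrocytes), Gpr17 (oligodendrocyte precursors), P2ry12 (microglia) and Pcp2 (cerebellum) were listed at 0. The span of each is wholly shared with other genes, so they have no measured level. WT replicate 4 also held the highest WT sums of oligodendrocyte (5483 CPM, against at most 4165 in the other WT libraries), thalamic (308 against 254) and hippocampal markers (388 against 322). In such bulk samples fewer cells of a type and less RNA per cell cannot be told apart, and the part of these shifts in the results was not tested.

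The members' WT levels ran from 420 CPM for Pcdh9 down to 0.262 CPM for Fat2. Of the 39, 9 had a WT mean of at least 100 CPM, 23 lay between 10 and 100, 4 between 1 and 10, and 3 (Cdh3, Cdh26 and Fat2) were under 1 CPM. Per kb of exon, Pcdh9 stood first at 62.0 CPM per kb in WT, followed by Pcdh1 at 34.0, Celsr2 at 29.8, Pcdh7 at 18.9 and Cdh2 at 17.5. The counts appear to include intronic reads, so a level per kb of exon is raised for genes with long introns. Per kb of the whole span, Celsr2 led at 13.9, then Pcdh1 at 11.4, the nearly intronless Pcdh8 at 8.74 and Celsr3 at 6.48, whereas Pcdh9, which spans 877 kb, stood at 0.479 CPM per kb. The order thus depends on the length used. Stretches shared with other genes appear to hold few or no counts, which lowers a level per kb. The shared fraction of the span was 0.310 for Pcdh8 and 0.0873 for Pcdh1, so the order of these 2 is uncertain. Libraries of both genotypes lay close together for most members on this scale.

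**Figure D1:**
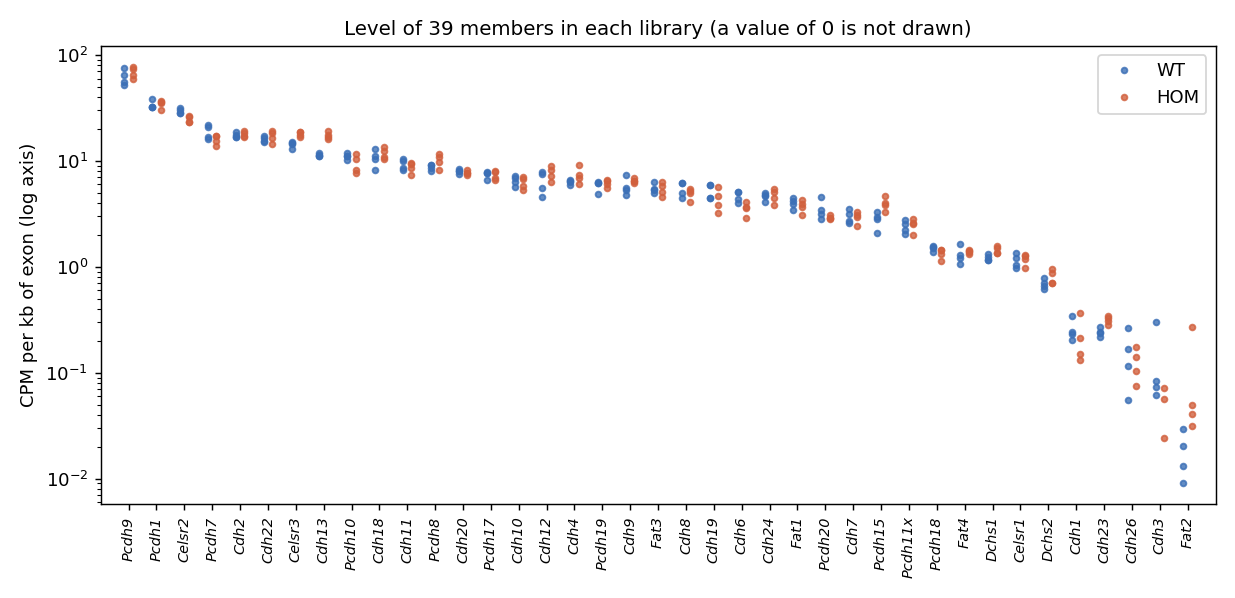
Level of each of the 39 members per kb of exon (CPM per kb, log axis), 1 point per library, WT in blue and HOM in orange, ordered by the WT mean. Pcdh9 is highest at a WT mean of 62.0, the libraries of both genotypes overlap for most members, and Fat2, Cdh3 and Cdh26 are lowest.

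Against this spread 3 of the 38 members tested rose in HOM, namely Cdh13, Pcdh15 and Celsr3, and 0 fell (edgeR, adjusted p under 0.05 by Benjamini-Hochberg over 17395 genes). Over all genes tested, 2.47% were called higher and 2.94% lower. At an unadjusted p under 0.05, 6 members were higher (Fat2 among them) and 3 lower, where the shares of all genes were 10.4% and 12.5%. DESeq2 called 3 higher and 2 lower (Celsr2 and Cdh6), where it called 5.19% of all genes higher and 7.2% lower, and limma-voom called 3 higher and 1 lower (Celsr2), beside 2.49% and 3%. The median log2 fold change of the members was 0.03, beside 0.00 over all genes, with 21 values above 0 and 17 below. CPM did not overlap between genotypes for Cdh13, Celsr3, Cdh23 and Dchs1, which were higher in HOM, and for Celsr2, which was lower; the shares of all genes were 6.63% higher and 7.47% lower. Fat2 did not overlap either, but it met the count minimum through HOM. The calls were thus single members. Cdh13 and Pcdh15 lie outside the classical and delta groups, and Celsr3 is a Celsr gene. With WT replicate 3 left out, or HOM replicate 1, or HOM replicate 3, 1 member was called higher, Cdh13. Calls over all genes were also fewer with these removals, at 0.379%, 0.501% and 0.517% higher and 0.646%, 0.706% and 0.505% lower.

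**Figure D2:**
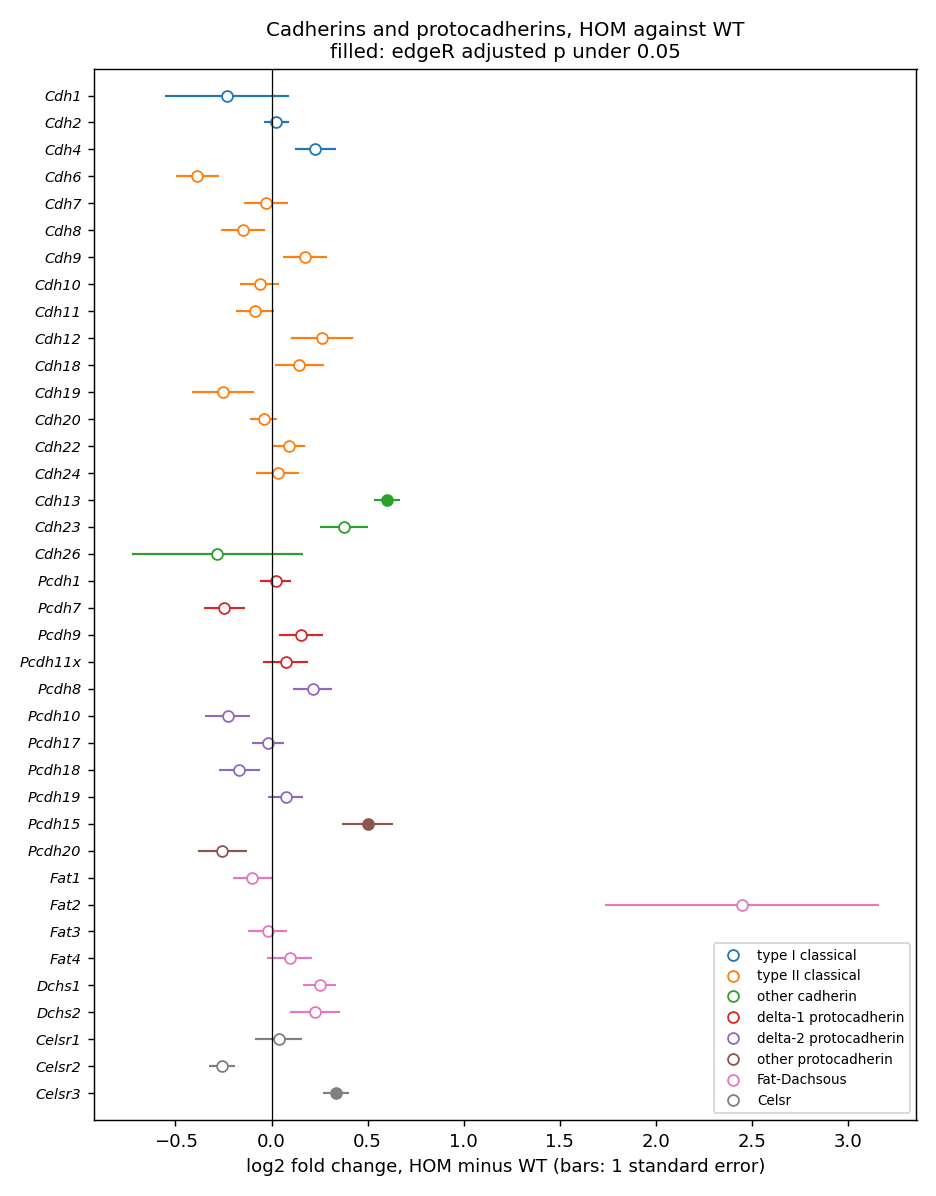
Log2 fold change (HOM minus WT, bars 1 standard error) of the 38 members tested, coloured by subfamily; filled points passed an edgeR adjusted p under 0.05. Cdh13 (0.60), Pcdh15 (0.50) and Celsr3 (0.33) are filled, most others lie within 0.3 of 0, and Fat2 (2.45) has by far the widest bar.

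The member with the smallest adjusted p was Cdh13, which encodes T-cadherin. Unlike classical cadherins it has no cytoplasmic tail and is held to the membrane by a GPI anchor, and it also binds adiponectin. It stood at 134, 129, 125 and 125 CPM in the WT libraries, replicates 1 to 4, and 215, 188, 180 and 196 CPM in the HOM libraries. Every HOM library stood above every WT library, and the gap between the lowest HOM and the highest WT value was wider than the whole range of WT. The means were 128 ± 4.14 and 195 ± 14.7 CPM (SD, n = 4), a 1.52-fold difference (log2 fold change 0.60 with SE 0.07; adjusted p = 8.72e-04 by edgeR). Cdh13 (ENSMUSG00000031841) lies on the plus strand of GRCm38 chromosome 8 from 118283733 to 119324921. It stayed past the threshold in all 8 removals of 1 library, at log2 fold changes from 0.56 to 0.65, and in each of the other 11 alternatives. With the trend of fold change on gene span removed it was 0.42 (adjusted p = 0.00451).

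Pcdh15 and Cdh23 encode the pair of long cadherins that form the tip links of inner-ear hair cells, and Pcdh15 is also known from oligodendrocyte precursors. Pcdh15 stood at 78.3, 66.7, 70.4 and 49.95 CPM in the WT libraries, replicates 1 to 4, and at 112, 95.1, 90.4 and 77.9 CPM in HOM. The groups overlapped slightly, since HOM replicate 4 lay just below WT replicate 1. The lowest value was that of WT replicate 4, the library with the highest choroid plexus and oligodendrocyte marker sums; without it the log2 fold change was 0.38 (adjusted p = 0.0886). Its mean rose from 66.3 ± 11.9 to 93.8 ± 14.0 CPM (SD over n = 4 libraries; log2 fold change 0.50 with SE 0.13; adjusted p = 0.0491 by edgeR). This call was narrow: leaving out any of WT replicates 2, 3 and 4 or HOM replicates 1, 2 and 3 ended it (adjusted p from 0.0661 to 0.152; log2 fold changes from 0.38 to 0.60 over all 8 removals of 1 library), as did RLE scaling (0.0519) and robust quasi-likelihood (0.0506). With the span trend removed the log2 fold change was 0.28 (adjusted p = 0.0285), and with WT replicate 4 and HOM replicate 1 both removed it was 0.29 (adjusted p = 0.203). Markers of oligodendrocyte precursors, summed over 4 genes, lay between 111 and 124 CPM in WT and between 89.1 and 112 CPM in HOM, and none of the 3 with a measured level passed the edgeR test.

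Cdh23 was far lower, at 3.70, 4.02, 4.59 and 4.09 CPM in the WT libraries, replicates 1 to 4, and 5.20, 5.52, 4.74 and 5.79 CPM in HOM. All HOM libraries lay above all WT libraries, but the difference did not pass (log2 fold change 0.38 with SE 0.12; adjusted p = 0.0966 by edgeR). Cdh26, the last of the atypical cadherins measured, was at 0.453 CPM in WT and 0.371 CPM in HOM (log2 fold change -0.28, SE 0.45), at 5 to 25 counts per library.

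In the Celsr family Celsr3 rose, the values of Celsr2 were lower in HOM without passing, and Celsr1 was near its WT level. Celsr3, known for its part in the growth of forebrain axon tracts, stood at 177, 181, 176 and 157 CPM in the WT libraries, replicates 1 to 4, and 229, 204, 226 and 212 CPM in HOM. The groups did not overlap, and Celsr3 rose 1.26-fold, from 173 ± 10.7 to 218 ± 11.8 CPM (SD over n = 4 libraries; log2 fold change 0.33 with SE 0.07; adjusted p = 0.0195 by edgeR). Leaving out WT replicate 3 ended the call (adjusted p = 0.0628), as did leaving out HOM replicate 1 (0.0686), HOM replicate 3 (0.0736), both replicates 4 (0.0529), or WT replicate 4 with HOM replicate 1 (0.137). With each library left out in turn its log2 fold change lay between 0.29 and 0.37. Celsr2, expressed by neurons and ependymal cells, stood at 366, 328, 351 and 329 CPM in WT and 269, 302, 308 and 270 CPM in HOM. It was below WT in every HOM library and just missed the threshold (log2 fold change -0.26 with SE 0.07, adjusted p = 0.0511 by edgeR). Celsr2 passed with DESeq2 (0.00844), limma-voom (0.0462), robust quasi-likelihood (0.0481) and the span trend removed (0.0287). These were 4 of 11 alternatives, and it passed in 0 of the 8 removals of 1 library (edgeR adjusted p from 0.0516 to 0.175). Celsr1, the planar polarity member of epithelia, was at 12.6 ± 1.85 CPM in WT and 12.9 ± 1.597 CPM in HOM (log2 fold change 0.04, SE 0.12).

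The ratio of Celsr3 to Celsr2 counts does not depend on how libraries are scaled. It was 0.484, 0.551, 0.501 and 0.477 in WT replicates 1 to 4 and 0.851, 0.675, 0.734 and 0.785 in HOM replicates 1 to 4. All HOM ratios were above all WT ratios, with means of 0.503 ± 0.0333 and 0.761 ± 0.0745 (SD, n = 4). CPM of Celsr3 were already higher and those of Celsr2 lower in every HOM library than in any WT library. The separation of the ratios follows from this and adds no support. This pair was picked after its values were seen, so the ratio is a description without a test.

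The bases before the start sites of Celsr2 and Celsr3 are shown because the HOM values of these genes lay on opposite sides of WT, and those of Pcdh10 because it holds matches to a searched motif. Of the 39 members 28 had an entry in the RefSeq promoter table (GRCm38.p6). Each window is the 250 bases before the RefSeq start site, in the direction of the gene, and capitals mark a motif match. Celsr2 is on the minus strand at chr3:108415580-108415829, Celsr3 on the plus strand at chr9:108825795-108826044 and Pcdh10 on the plus strand at chr3:45378148-45378397. The RefSeq start of Celsr3 lies 275 bases from the GENCODE start of the gene.
Celsr2: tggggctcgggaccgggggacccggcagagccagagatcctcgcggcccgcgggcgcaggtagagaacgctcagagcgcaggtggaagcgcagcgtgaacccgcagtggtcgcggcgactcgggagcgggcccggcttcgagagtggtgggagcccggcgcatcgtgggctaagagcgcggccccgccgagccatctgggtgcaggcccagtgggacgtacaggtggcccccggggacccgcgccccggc
Celsr3: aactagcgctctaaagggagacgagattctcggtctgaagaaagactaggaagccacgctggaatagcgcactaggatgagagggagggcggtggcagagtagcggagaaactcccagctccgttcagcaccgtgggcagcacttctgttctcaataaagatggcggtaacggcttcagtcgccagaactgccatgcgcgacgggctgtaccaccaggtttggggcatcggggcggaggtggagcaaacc
Pcdh10: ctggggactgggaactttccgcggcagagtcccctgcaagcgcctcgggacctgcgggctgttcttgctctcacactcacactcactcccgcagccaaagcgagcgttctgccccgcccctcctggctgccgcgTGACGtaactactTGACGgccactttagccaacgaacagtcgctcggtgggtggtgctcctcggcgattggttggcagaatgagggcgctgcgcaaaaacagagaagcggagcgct

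The 3 motifs searched on both strands were TGACG, a part of the cyclic AMP response element, GCGNGGGCG, the core of the EGR site, and TGANTCA, the AP-1 site. These are binding sites of factors that neuronal activity engages. TGACG was found in 3 of 28 members (Cdh8, Pcdh9 and Pcdh10, 10.7%) beside 17.8% of all 32851 windows, GCGNGGGCG in 3 (Cdh7, Cdh24 and Pcdh17, 10.7%) beside 4.7%, and TGANTCA in 0 beside 6.75%. A member with several windows counted if any of them matched, whereas the shares beside it are over single windows. The Celsr2 and Celsr3 windows held none of the 3 motifs, and the Pcdh10 window held 2 matches to TGACG. GC content was 75.2% in the Celsr2 window and 58.0% in that of Celsr3. Matches are letters in a window and not measured sites.

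**Figure D3:**
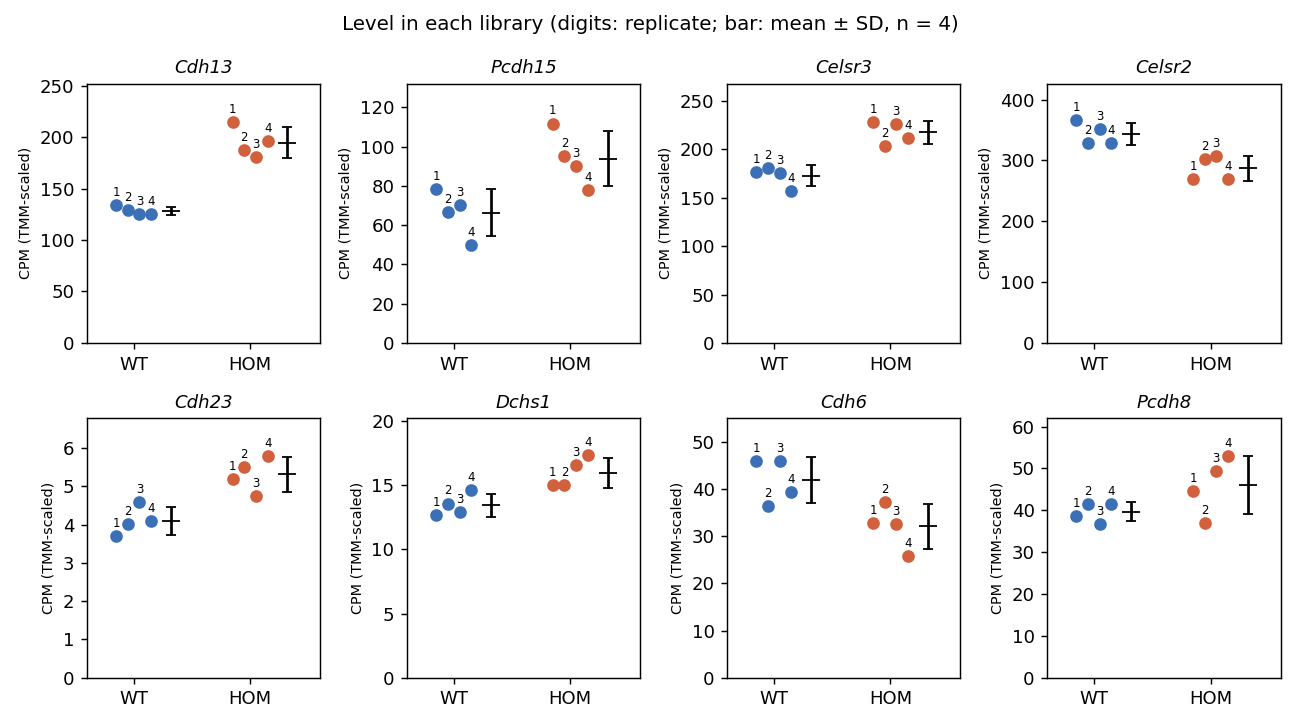
TMM-scaled CPM of 8 members in each library; digits give the replicate and the black bar the mean ± SD (n = 4). HOM libraries lie above all WT libraries for Cdh13, Celsr3, Cdh23 and Dchs1 and below them for Celsr2, while Pcdh15, Cdh6 and Pcdh8 overlap.

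None of the 3 type I classical cadherins tested passed (edgeR, DESeq2 and limma-voom called 0; 0 had an unadjusted p under 0.05). Cdh2, or N-cadherin, the main classical cadherin of excitatory synapses, stood between 134 and 152 CPM in WT and between 136 and 154 CPM in HOM (log2 fold change 0.02, SE 0.07). The ranges of the genotypes were nearly the same. Cdh4, or R-cadherin, lay between 42.9 and 47.7 CPM in WT and between 44.3 and 66.7 CPM in HOM (log2 fold change 0.23 with SE 0.11; adjusted p = 0.227 by edgeR), HOM replicate 1 being highest. The epithelial cadherins Cdh1 (1.16 CPM in WT, 0.978 in HOM) and Cdh3 were at or under 2 CPM in every library.

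Of the 12 type II cadherins, which divide neurons into regional and synaptic subtypes, none passed the edgeR test (1 had an unadjusted p under 0.05; DESeq2 called 1, Cdh6). Their median log2 fold change was -0.04, with values from -0.39 for Cdh6 to 0.26 for Cdh12. Cdh6 stood at 46.0, 36.4, 46.1 and 39.3 CPM in the WT libraries, replicates 1 to 4, and at 32.8, 37.2, 32.6 and 25.8 CPM in HOM. Only HOM replicate 2 reached into the WT range (log2 fold change -0.39 with SE 0.11; adjusted p = 0.0657 by edgeR). It passed with DESeq2 (0.0181), no filter (0.0466), the span trend removed (0.0168), without WT replicate 2 (0.0456) and without HOM replicate 2 (0.0403). These were 2 of the 8 removals of 1 library and 3 of 11 other alternatives. In the rest, limma-voom among them, Cdh6 did not pass (adjusted p up to 0.200).

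Cdh11, the type II member with the highest CPM though not per kb, lay between 72.6 and 92.7 CPM in WT and between 65.1 and 84.5 CPM in HOM (log2 fold change -0.09, SE 0.10). Cdh10 (-0.06, SE 0.10), Cdh20 (-0.04, SE 0.07), Cdh7 (-0.03, SE 0.12), Cdh24 (0.03, SE 0.11) and Cdh22 (0.09, SE 0.09) likewise had log2 fold changes near 0. Cdh9, known for synapses between the dentate gyrus and CA3, was at 20.4 ± 3.79 CPM in WT and 23.0 ± 1.10 CPM in HOM (SD, n = 4). Cdh8 (-0.15, SE 0.12), Cdh18 (0.14, SE 0.13) and Cdh12 (0.26, SE 0.16) did not pass. Cdh12 shares a fraction of 0.466 of its span with other genes, so its value is uncertain. Cdh19, a cadherin of glial lineages, was at 22.2 ± 3.64 CPM in WT and 18.7 ± 4.50 CPM in HOM, with its lowest value, 13.8 CPM, in HOM replicate 1, where summed oligodendrocyte markers were lowest too (3147 CPM).

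The delta-1 protocadherins did not pass either (4 tested with edgeR; 1 had an unadjusted p under 0.05; DESeq2 and limma-voom called 0). Pcdh9 stood at 510, 378, 437 and 357 CPM in the WT libraries, replicates 1 to 4, and 526, 499, 442 and 405 CPM in HOM (log2 fold change 0.16 with SE 0.11; adjusted p = 0.447 by edgeR). Its libraries spread widely within each genotype. Pcdh7 stood at 233, 170, 220 and 180 CPM in WT and 182, 183, 165 and 147 CPM in HOM (log2 fold change -0.25 with SE 0.11; adjusted p = 0.191 by edgeR), and it passed with the span trend removed (-0.33, adjusted p = 0.0135). Pcdh1 was at 299 ± 26.0 CPM in WT and 303 ± 26.5 CPM in HOM (SD, n = 4). The X-linked Pcdh11x was at 33.1 ± 4.47 and 34.9 ± 4.94 CPM, with its lowest value, 28.1 CPM, in HOM replicate 4, the library with 2 Y-linked counts, and the next lowest, 28.3 CPM, in WT replicate 2.

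Among the 5 delta-2 protocadherins, several of which bind the WAVE complex, none passed the edgeR test (0 had an unadjusted p under 0.05; DESeq2 and limma-voom called 0). Pcdh8, or arcadlin, is known as a gene induced by neuronal activity whose product draws N-cadherin into the cell through the kinase Taok2. It stood at 38.7, 41.5, 36.8 and 41.5 CPM in the WT libraries, replicates 1 to 4, and 44.7, 37.0, 49.3 and 53.1 CPM in HOM. Of the HOM libraries 3 were above all WT libraries and HOM replicate 2 was not (log2 fold change 0.22 with SE 0.10, adjusted p = 0.229 by edgeR). Without HOM replicate 2 it was 0.32 (edgeR adjusted p = 0.0425), a setting where 3.06% of all genes were called higher. That was the only 1 of 8 removals in which Pcdh8 passed (log2 fold changes from 0.16, adjusted p up to 0.432). It passed in 0 of the 11 other alternatives. A fraction of 0.310 of its span is shared with an antisense gene. Pcdh10, whose gene has been linked to autism, stood at 188, 178, 178 and 162 CPM in WT and 131, 185, 166 and 122 CPM in HOM (log2 fold change -0.23 with SE 0.12; adjusted p = 0.265 by edgeR), HOM replicates 1 and 4 being the low ones. A fraction of 0.333 of its span is shared with other genes. Pcdh17, a synaptic protein of corticobasal circuits, had a log2 fold change of -0.02 (SE 0.08) and Pcdh18 of -0.17 (SE 0.11). The X-linked epilepsy gene Pcdh19 was at 61.6 ± 7.25 CPM in WT and 64.8 ± 4.82 CPM in HOM (SD, n = 4), with 63.4 CPM in HOM replicate 4. Pcdh20, which belongs to neither delta group, was at 19.2 ± 4.12 CPM in WT and 16.1 ± 0.619 CPM in HOM (log2 fold change -0.26 with SE 0.13; adjusted p = 0.251 by edgeR).

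Of the Fat and Dachsous genes, none of 6 passed the edgeR test (2 had an unadjusted p under 0.05; limma-voom called 0 and DESeq2 called 0, giving Fat2 no adjusted p). Fat3, which shapes dendrites of retinal amacrine cells, was at 119 ± 13.1 CPM in WT and 117 ± 15.9 CPM in HOM. Fat1 had a log2 fold change of -0.10 (SE 0.10). Fat4 and Dchs1 form a receptor and ligand pair that acts in neuronal migration. Fat4 was at 22.4 ± 4.32 and 23.9 ± 0.964 CPM (SD, n = 4), whereas Dchs1 stood at 12.7, 13.6, 12.9 and 14.7 CPM in the WT libraries, replicates 1 to 4, and 15.02, 15, 16.6 and 17.3 CPM in HOM. The Dchs1 groups did not overlap, but the difference did not pass (log2 fold change 0.25 with SE 0.09, adjusted p = 0.105 by edgeR). A fraction of 0.731 of its span is shared with an antisense gene. Since nearly all genes with a wholly shared span were at 0, the Dchs1 counts appear to come from the rest of its span. Dchs2 had a log2 fold change of 0.23 (SE 0.13, edgeR adjusted p = 0.311).

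Fat2, known from cerebellar granule cells, was nearly absent except in HOM replicate 1. It held 11, 4, 12 and 6 counts in WT replicates 1 to 4 and 142, 17, 23 and 16 counts in HOM. HOM replicate 1 stood at 3.93 CPM, the other HOM libraries between 0.452 and 0.713 and the WT libraries between 0.132 and 0.430 CPM. Gabra6, a GABA-A receptor gene that also marks cerebellar granule cells, held 119 counts in HOM replicate 1, 2 in WT replicate 3 and 0 in the other libraries. Another cerebellar marker, Zic1, was at 9.57 CPM in HOM replicate 1 and 23.2 CPM in WT replicate 4. The log2 fold change of Fat2 was 2.45 (SE 0.71, edgeR adjusted p = 0.0643) with all libraries and 1.16 (adjusted p = 0.185) without HOM replicate 1. It passed without HOM replicate 2 (0.0450) or HOM replicate 4 (0.0466) and with no filter (0.0191). The groups did not overlap with or without that library, on few counts. Fat2 met the count minimum mainly through HOM.

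Cdh3, or P-cadherin, was not tested. It held 10, 11, 9 and 42 counts in WT replicates 1 to 4 and 9, 3, 0 and 11 in HOM. The high library, WT replicate 4, was the one with the most choroid plexus marker RNA (1700 CPM, against at most 413 CPM in any other library). In each of these genes 1 library held most of the counts of its group.

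**Figure D4:**
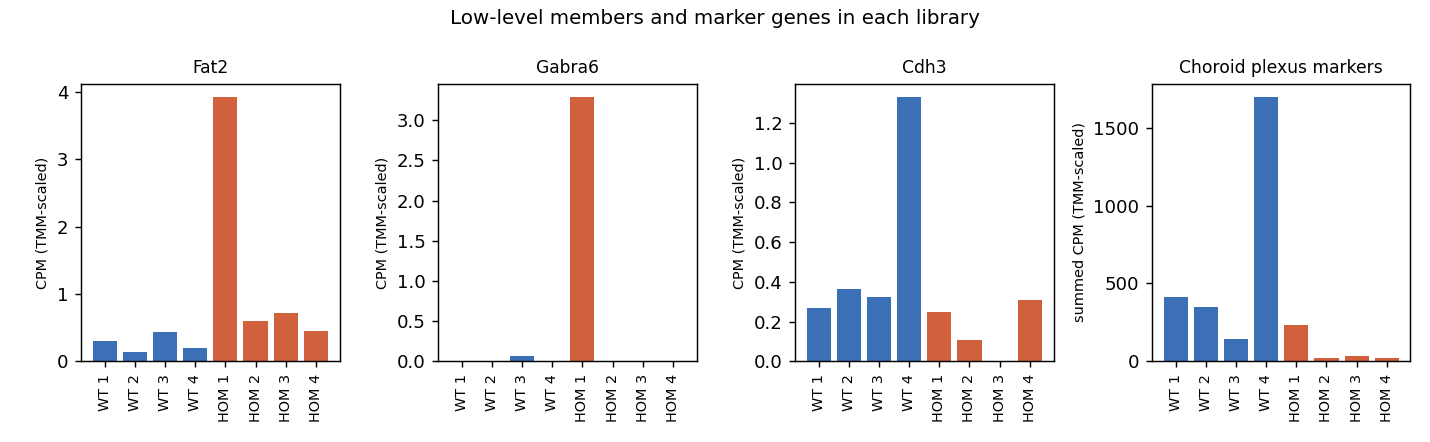
CPM of Fat2, the cerebellar granule cell gene Gabra6, Cdh3 and the sum of 10 choroid plexus markers in each library (bars from 0, 1 bar per library). Fat2 (3.93 CPM) and Gabra6 (3.29 CPM) peak in HOM replicate 1, while Cdh3 (1.33 CPM) and the choroid plexus markers (1700 CPM) peak in WT replicate 4.

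The members are long genes, a feature the symbols did not select. Their median span was 132 kb, beside 23.6 kb over all genes tested. Among all 591 tested genes spanning over 300 kb the median log2 fold change was 0.10, and 8.63% were called higher and 1.86% lower in HOM. Of the 11 members of that length 2 rose, Cdh13 (1041 kb) and Pcdh15 (1550 kb), 8 had values above 0, and their median was 0.16. Cdh8, Pcdh7 and Fat3 were the 3 long members with values below 0, at -0.15, -0.25 and -0.02. In the 27 shorter members, 1 rose, Celsr3, whose span is 26.7 kb, and 0 fell. Among all 16794 tested genes spanning up to 300 kb 2.25% were called higher and 2.98% lower. With the trend on span removed, the median of the members was 0.00, 4 members were higher (Cdh13, Pcdh15, Celsr3 and Fat2, the last admitted through its HOM counts) and 3 lower (Cdh6, Pcdh7 and Celsr2). On that setting the shares over all genes were 4% higher and 5.46% lower. Exonic and intronic reads cannot be told apart in these counts, so it was not tested whether the difference in Cdh13 and Pcdh15 lies in mature or unspliced RNA.

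**Figure D5:**
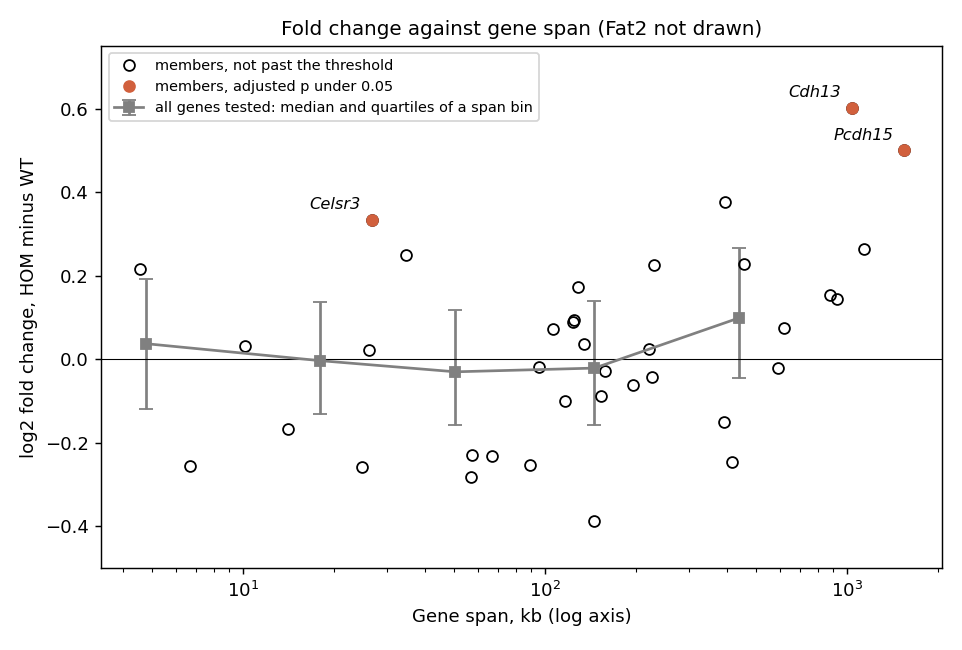
Log2 fold change (HOM minus WT) of the members against gene span in kb (log axis), with the median and quartiles of all genes tested in 5 span bins in grey; Fat2 is not drawn. Cdh13 and Pcdh15 lie above the upper quartile of genes over 300 kb, and Celsr3 lies above that of genes of 10 to 30 kb.

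Genes whose products work with cadherins were read from 4 lists of 62 genes. Of the 61 tested, 2 rose and 3 fell, where 2.47% of all genes were called higher and 2.94% lower. At an unadjusted edgeR p under 0.05, 3 were higher and 13 lower, where the shares of all genes were 10.4% and 12.5%. CPM did not overlap between genotypes for 2 genes higher in HOM and 9 lower, beside 6.63% and 7.47% of all genes. The median log2 fold change of the 61 was -0.04. Among 16 catenins and related partners, which link classical cadherins to actin, none passed the edgeR test (4 had an unadjusted p under 0.05; DESeq2 and limma-voom called 0). The beta-catenin gene Ctnnb1 had the smallest p, at 177 ± 5.98 CPM in WT and 148 ± 20.4 CPM in HOM (SD over n = 4 libraries; log2 fold change -0.25; adjusted p = 0.114 by edgeR), followed by Ctnna1, the alpha-catenin gene (-0.18, adjusted p = 0.182).

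Of 19 planar polarity and Fat-Dachsous partners tested, 2 rose with edgeR. At an unadjusted edgeR p under 0.05, 2 were higher and 4 lower, beside 10.4% and 12.5% of all genes. DESeq2 also called Yap1 lower. Dvl2, a Dishevelled adaptor downstream of Frizzled receptors, went up from 21.8 ± 1.53 to 29.5 ± 3.02 CPM (SD over n = 4 libraries; log2 fold change 0.44; adjusted p = 0.0198 by edgeR), and the scaffold gene Scrib from 56.3 ± 3.78 to 68.7 ± 4.45 CPM (0.29, adjusted p = 0.0400). Every HOM library was above every WT library for both. Of 13 WAVE and actin partners 2 fell: Nckap1, a core WAVE subunit, from 566 ± 41.3 to 456 ± 39.6 CPM (-0.31, edgeR adjusted p = 0.0397), and Wasf1, the neuronal WAVE1 gene, from 246 ± 14.8 to 205 ± 6.90 CPM (-0.26, adjusted p = 0.0356). The Nckap1 groups overlapped and those of Wasf1 did not. In this list 4 genes were lower and 0 higher at an unadjusted edgeR p under 0.05, beside 12.5% and 10.4% of all genes. DESeq2 also called Cyfip2 lower. Of 13 nectins, calsyntenins and proteases 1 fell: the calsyntenin gene Clstn1, itself a cadherin-superfamily cargo adaptor of axons, from 1632 ± 90.4 to 1326 ± 80.2 CPM (-0.30, adjusted p = 0.0277). All 5 edgeR calls were lost with the replicate block, and also when WT replicate 3, HOM replicate 1 or HOM replicate 3 was left out alone. In these settings their log2 fold changes stayed within 0.05 of those with all libraries, and calls over all genes were fewer too (with the block 0.972% higher and 1.12% lower).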

How the data were processed

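The file the authors deposited holds unnormalized counts, whole numbers per Ensembl identifier, for 8 libraries. The labels describe column-purified total RNA and a stranded, paired-end kit. The submitters' processing notes name STAR, featureCounts, edgeR and FastQC 0.11.3 and the build GRCm38. Annotation, strand setting and other versions: not given in the sources used here. Names and positions came from GENCODE M21 (54409 of 54446 identifiers matched). Of 1326 protein-coding genes whose span is wholly shared with other genes, 96.7% had no counts at all, against 13.4% of the rest, so counts are taken to cover whole gene bodies, introns included, and to ignore strand. For this reason Cdh15 and 55 of 57 clustered protocadherins, all at 0, have no measured value.

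The test was that of edgeR 4.0.16 under R 4.3.3 (quasi-likelihood F test, TMM scaling, filterByExpr at its defaults, no covariate), with Benjamini-Hochberg adjustment over 17395 genes and a threshold of 0.05. CPM are counts scaled to TMM-adjusted library sizes. Standard errors are the log2 fold change divided by the root of the F statistic. Alternatives were DESeq2 1.42.0, limma-voom (limma 3.58.1), upper-quartile and RLE scaling, robust quasi-likelihood, the replicate number as a block, a filter of 1 CPM in 4 libraries, none at all, an offset removing each library's smooth trend with gene span, each library left out, and WT and HOM replicates 4 left out together. The removal of WT replicate 4 with HOM replicate 1 was added after the data were seen. All pairs of libraries differed beyond sampling noise (lowest chi-square per degree of freedom 7.09).

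The members and lists were chosen with earlier results of these data known, so lists are described by counts and medians and not tested. Named with full values were members past the threshold, those without overlap between genotypes, the most abundant of each subfamily and Pcdh8; from each partner list those past the threshold or the 2 of smallest p. Members close to the threshold were added after their values were seen.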

Additional observations from a re-analysis of the deposited data

Results flagged for a closer look

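In 5 of the 78 groups of 4 libraries checked (39 members in 2 genotypes), 1 library stood far from the other 3. Chance alone gives about 1 in 20 if values are independent and normally spread, which was not tested. Fat2 reached 3.93 CPM in HOM replicate 1, the nearest HOM library being at 0.713 CPM. Cdh3 reached 1.33 CPM in WT replicate 4, the nearest WT library being at 0.363 CPM. The other 3 were in WT replicate 2, where Pcdh1 was high at 338 CPM (nearest 287), and Pcdh17 (85.5 CPM, nearest 99.2) and Pcdh19 (50.8 CPM, nearest 64.2) were low.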

How the results depend on the processing

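Members called higher numbered 3 with all libraries, 1 to 4 with each library left out in turn, and 1 with WT replicate 4 and HOM replicate 1 both removed. Members called lower numbered 0, and 2 with DESeq2, 1 with limma-voom, 1 with robust quasi-likelihood, 1 with no filter, 3 with the span trend removed and 0 to 1 with each library left out; the cause was not tested. Partner genes called higher numbered 2, and 0 with the replicate block, 0 without WT and HOM replicates 4, 0 without WT replicate 4 and HOM replicate 1, and 0 to 2 with each library left out. Partner genes called lower numbered 3, and 5 with DESeq2, 1 with upper-quartile scaling, 0 with the replicate block, 1 without WT and HOM replicates 4, 0 without WT replicate 4 and HOM replicate 1, and 0 to 5 with each library left out. Calls over all genes changed between settings too, from 2.47% higher and 2.94% lower with edgeR. They were 5.19% and 7.2% with DESeq2, 4% and 5.46% with the span trend removed, and 0.972% and 1.12% with the replicate block. The share called lower was below 2.94% with upper-quartile scaling, no filter, either pair of libraries left out and most removals of 1 library. These counts alone therefore do not show a change specific to these genes. With the replicate block the members called were 3 higher and 0 lower, as without it. The replicate numbers did not pair the libraries: deviations from the genotype means correlated at 0.05, -0.20, -0.01 and 0.03 for numbers 1 to 4. No member reversed direction by more than its standard error on both sides. Of the member values under alternatives, 689 kept their side of the threshold, 14 lost a call and 15 gained 1. The median over the members lay between 0.00 and 0.07 over all settings. Fat2, Cdh3 and Cdh26 are limited by depth, at under 1 CPM in WT.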

Other observations

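Cdh5, the endothelial cadherin, is not counted among the members. It was at 12.5 ± 2.36 CPM in WT and 8.68 ± 0.580 CPM in HOM (SD over n = 4 libraries; log2 fold change -0.52 with SE 0.13; adjusted p = 0.0369 by edgeR). It is 1 of the 8 endothelial markers, all of which had log2 fold changes below 0, from -0.11 for Tek to that of Cdh5. Of the other 7, Flt1 (-0.47, adjusted p = 0.0345) and Abcb1a (-0.42, adjusted p = 0.0319) also passed.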
